A study of Mus musculus with 9 samples.

Results

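The calcium/calmodulin-dependent kinases (CaM kinases) were followed in the olfactory bulb of CD1 mice from embryonic day 11 (E11) to birth (P0). The members were the probe sets whose only gene symbol in the platform annotation was Camk1, Camk1d, Camk1g, Camk2a, Camk2b, Camk2d, Camk2g, Camk4, Camkk1 or Camkk2. This rule gave 31 of the 45101 probe sets on the array and 9 of the 10 genes, and Camkk1 was not analysed here. The series held 9 arrays, 1 for each day from E11 to E18 and 1 at P0, each made from the bulbs of a single animal of the same outbred strain. The labels give no treatment and no altered allele, and the RNA was amplified before it was labelled. Xist, a transcript of female cells, was high on the E11, E12, E15 and P0 arrays and not on the other 5, so sex differed between ages. No age had a replicate, so each trend's error reflects how far the 9 single animals lay off its line, and a difference between 2 single ages carries no test. Values are log2 expression levels made by the authors with GCRMA, on which 1 unit is a doubling.

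Calcium that enters a neuron binds calmodulin, and calcium-loaded calmodulin switches on the CaM kinases by lifting an inhibitory segment off the catalytic site. CaM kinase II (CaMKII) is a large multimeric enzyme built from alpha, beta, gamma and delta subunits, encoded by Camk2a, Camk2b, Camk2g and Camk2d, and is known for holding its activity through autophosphorylation at synapses. CaM kinase I, encoded by Camk1, Camk1d and Camk1g among others, and the nuclear CaM kinase IV, encoded by Camk4, are activated by the upstream CaM kinase kinases Camkk1 and Camkk2. In the brain the CaMKI arm is known for axon and dendrite growth, the CaMKIV arm for phosphorylation of the transcription factor CREB, and the alpha subunit of CaMKII in the adult bulb for its presence in granule cells.

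The labelled tissue carried the markers of its neurons. All 12 listed general neuronal genes could be tested, and Snap25, a protein of the release machinery, read 12.64 at P0, against 9.36 at E11. Tbx21, a T-box factor of mitral and tufted cells, read 9.28 at P0, against 2.40 at E11. Other transcription factors of these cells differed: Tbr1 fell, to 10.29 at P0 against 11.57 at E11 (limma, adjusted p = 0.00684), and Eomes did not pass (adjusted p = 0.419). Lhx1 also fell (limma, adjusted p = 0.035), but it reached log2 5 at E11 (5.20) and E13 (5.32) only. It passed the filter only through these arrays. Of 10 listed genes of olfactory sensory neurons 3 were tested (Gnal, Gng13 and Adcy3), and all 3 rose, where 25.0% of all genes tested rose. Gng13 reached log2 5 at E18 (6.30) and P0 (6.25) only, and Gnal read 3.73 at E11 and 3.47 at E12. Both passed the filter only through later arrays, and 37.1% of all probe sets under 5 on 1 array or more rose. The summed level of the 3 genes was 9.49 log2 units at P0, against 5.85 at E11. Omp, Cnga2 and Cnga4, which define mature olfactory sensory neurons, did not reach the filter. Markers of other cells moved along the course. The summed level of 5 red cell genes was 16.27 log2 units at E11, 15.73 at E12 and 7.58 at P0, and that of 12 genes of cycling cells and progenitors was 14.10 at P0, against 15.95 at E11. At E11 the red cell sum lay mostly in the embryonic globins Hbb-y, Hbb-bh1 and Hba-x. Hbb-y read 15.52 at E11 and 2.90 at P0, whereas Alas2 read 9.46 and 6.94 and did not pass (limma, adjusted p = 0.311). Hba-a1 and Hbb-b1, the adult globins listed, were not tested. The part of these shifts in the results below was not tested. In whole tissue, fewer cells of a type and less RNA per cell cannot be told apart.

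Most CaM kinase genes rose toward birth, and none fell. Of the 31 probe sets, 19 read log2 5 or more on at least 2 arrays and were tested for a slope on age in days (limma, moderated variance, Benjamini-Hochberg adjustment over all 21724 probe sets that passed this filter, threshold 0.05). Of these, 12 rose, 0 fell and 7 did not pass, against 20.7% that rose and 23.7% that fell over all probe sets tested. With 1 probe set per gene, the one with the highest mean, 7 of 9 genes rose and 0 fell, beside 25.0% that rose and 21.6% that fell over 10864 genes. The median slope was 0.18 log2 units per day for the 9 genes and 0.0020 for all genes tested. The filter weighs on these counts. All 7 member probe sets that read under 5 on 1 array or more rose, where they passed the filter only through the arrays on which they were high, and 37.1% of all such probe sets rose. Of the 12 that read 5 or more on every array, 5 rose and 0 fell, against 17.1% and 24.4% of all probe sets of that kind.

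**Figure D1:**
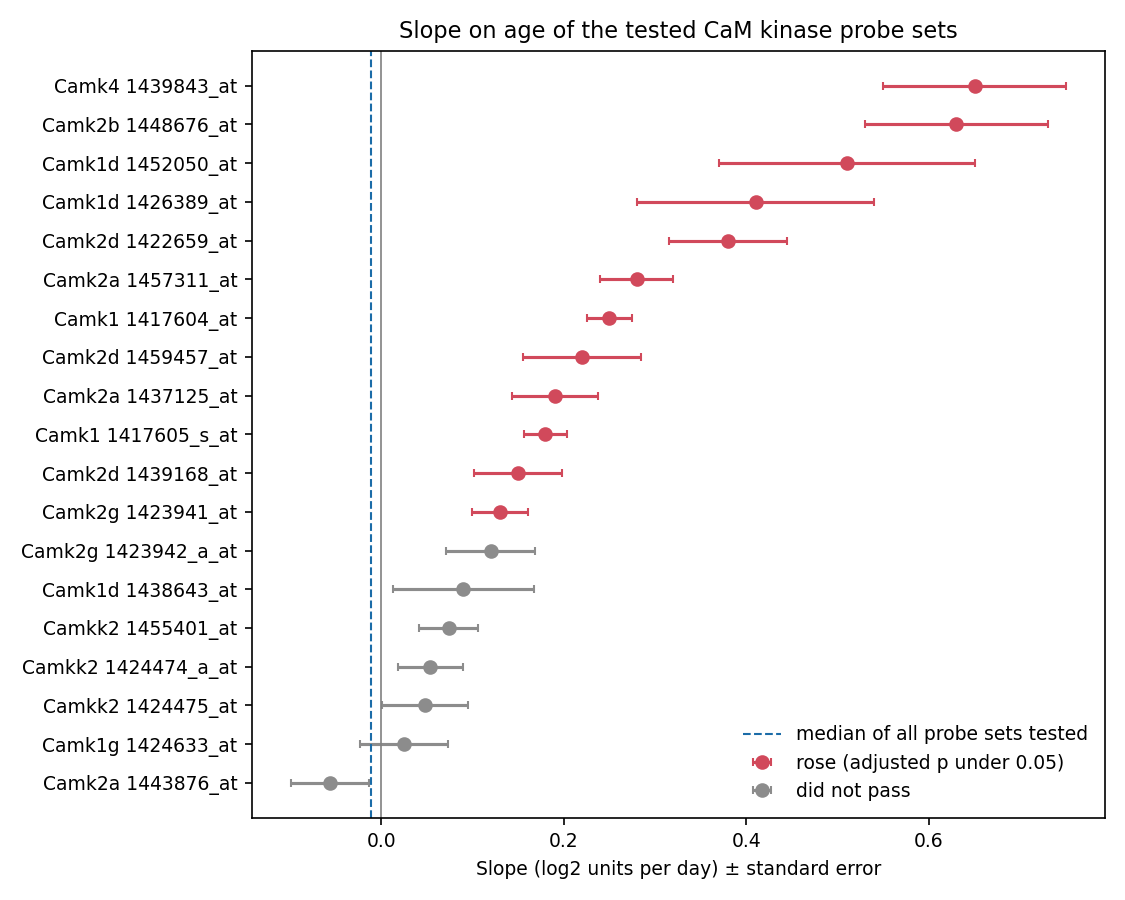
Slope on age, in log2 units per day, with its moderated standard error (bars) for the 19 tested CaM kinase probe sets on 9 arrays, ordered by slope. Red points rose, grey points did not pass, and the dashed line is the median of all probe sets tested (-0.011). Camk4, Camk2b and a Camk1d probe set stand at the top, and the Camkk2 and Camk1g probe sets lie near 0.

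Among the CaMKII genes, Camk2b changed most. Camk2b (probe set 1448676_at, the only one of this gene) encodes the beta subunit, which binds actin filaments and helps to shape dendritic spines. It read 4.57 at E11, 6.72 at E12, 8.39 at E13, 8.62 at E14, 9.69 at E15, 10.05 at E16, 9.68 at E17, 10.02 at E18 and 10.54 at P0. The level climbed through every age up to E16, dipped at E17 and was highest at P0. Its slope was 0.63 ± 0.10 log2 units per day (limma, adjusted p = 0.000846, n = 9 arrays), and P0 stood at least 46.4-fold above E11, where the E11 reading was under the filter level and set to 5. Of that rise, 61.3% was reached by E13 and 84.7% by E15. From E13 to P0 alone, the slope was 0.33 ± 0.056 (adjusted p = 0.00483).

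The 250 bases before and 50 after the annotated start of the gene are shown for the steepest CaMKII riser, the steepest CaMKI riser and a CaMKI gene without a call, because their courses differ. The sequences are from RefSeq on GRCm38.p6, and capitals mark the GC box GGGCGG, which binds Sp1-type factors, on either strand.
Camk2b (chr11:6065699-6065998, minus strand): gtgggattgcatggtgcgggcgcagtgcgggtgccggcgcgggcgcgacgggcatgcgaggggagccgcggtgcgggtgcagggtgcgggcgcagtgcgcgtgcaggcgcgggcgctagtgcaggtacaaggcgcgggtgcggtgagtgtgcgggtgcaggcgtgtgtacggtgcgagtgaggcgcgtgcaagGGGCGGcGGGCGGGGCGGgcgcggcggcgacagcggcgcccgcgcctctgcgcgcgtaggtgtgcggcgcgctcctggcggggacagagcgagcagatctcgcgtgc
Camk1d (chr2:5714713-5715012, minus strand): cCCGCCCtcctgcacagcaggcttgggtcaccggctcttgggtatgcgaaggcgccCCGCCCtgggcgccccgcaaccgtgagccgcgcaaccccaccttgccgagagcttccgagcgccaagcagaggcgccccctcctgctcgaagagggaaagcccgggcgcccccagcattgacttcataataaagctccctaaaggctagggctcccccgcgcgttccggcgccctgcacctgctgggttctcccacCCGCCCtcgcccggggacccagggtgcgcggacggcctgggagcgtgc
Camk1g (chr1:193370233-193370532, minus strand): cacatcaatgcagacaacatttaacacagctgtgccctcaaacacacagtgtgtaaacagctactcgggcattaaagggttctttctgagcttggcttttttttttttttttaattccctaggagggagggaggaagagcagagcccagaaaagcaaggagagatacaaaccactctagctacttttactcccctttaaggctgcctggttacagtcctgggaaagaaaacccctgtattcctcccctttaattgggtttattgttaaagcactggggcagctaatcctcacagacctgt
The Camk2b window held 3 GC boxes, 2 of which overlap, and 51 CpG dinucleotides, the Camk1d window 3 and 29, and the Camk1g window 0 and 1. Over 32851 windows of this length, 35.7% held a GC box and the median CpG count was 7. The other member genes with a window are Camk2d (3 GC boxes), Camkk2 (1), Camk1 (0) and Camkk1 (3), and a second Camk1d window held 1. The cyclic AMP response element TGACGTCA, the full site of CREB, was in none of the 8 windows and in 1.79% of all windows. CCAAT, read on both strands, was in 4 of the 8 and in 37.4% of all. These matches describe letters in a window and were not set against the courses in any test.

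Camk2a, which encodes the alpha subunit, had 6 probe sets that did not tell one story. The probe set with the highest mean, 1457311_at, read 5.23 at E11, 5.59 at E12, 6.18 at E13, 6.21 at E14, 7.07 at E15, 7.35 at E16, 7.04 at E17, 7.17 at E18 and 7.49 at P0. It stayed at or under 6.21 up to E14 and at or above 7.04 from E15 on. It rose by 0.28 ± 0.040 per day (limma, adjusted p = 0.000435) and was 4.79-fold higher at P0 than at E11. A second probe set, 1437125_at, rose by 0.19 ± 0.047 (adjusted p = 0.00763) but reached 5 at E18 (5.36) and P0 (5.54) only, and its call ended with values under 5 set to 5 (adjusted p = 0.0694). Another, 1443876_at, read between 6.31 and 6.91 from E11 to E16 and between 6.02 and 6.03 from E17 to P0, with a slope of -0.056 ± 0.043 (adjusted p = 0.308). The other 3 probe sets of Camk2a stayed between 1.93 and 2.67 on every array and were not tested.

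Camk2d, the gene of the delta subunit, which is widely expressed outside the brain, rose by all 3 of its tested probe sets. The one with the highest mean, 1439168_at, read 6.59 at E11, 7.30 at E12, 7.92 at E13, 7.91 at E14, 8.27 at E15, 8.42 at E16, 8.10 at E17, 7.93 at E18 and 8.16 at P0. By E13 it had made 84.9% of its rise, and it ended 2.98-fold above E11 (slope 0.15 ± 0.048, limma, adjusted p = 0.0261). This call was lost with the E11 array left out (adjusted p = 0.162), the E12 array left out (0.0641), no filter (0.0612), a rank correlation in place of the slope (0.084) and the ages from E13 to P0 alone (0.739). Probe set 1422659_at read 4.47 at E11, 6.54 at E14, 5.38 at E15, 7.78 at E17 and 7.16 at P0 and rose by 0.38 ± 0.065 (adjusted p = 0.00116), also from E13 to P0 (0.35 ± 0.099, adjusted p = 0.0366). By E13 that probe set had made 18.8% of its rise with the E11 reading set to 5, and 0.94 of 2.7 log2 units as read. Probe set 1459457_at, which had made 76.5% of its rise by E13, rose by 0.22 ± 0.065 (adjusted p = 0.0214), a call lost with the E11 (0.0839), E12 (0.0608) or P0 array (0.0629) left out, with no filter (0.0545), with a rank correlation (0.0743) and over E13 to P0 alone (0.505). The other 4 Camk2d probe sets were not tested, and their highest reading was 5.33, at P0.

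Camk2g, the gene of the gamma subunit, known for carrying calcium signals from the synapse toward the nucleus, had the smallest slope of the 4 CaMKII genes, not separable from that of Camk2d. Probe set 1423941_at read 9.09 at E11, 9.18 at E12, 9.74 at E13, 9.38 at E14, 9.99 at E15, 10.27 at E16, 9.75 at E17, 10.03 at E18 and 10.21 at P0. Every array from E13 on was above E11 and E12. Its slope was 0.13 ± 0.031 (limma, adjusted p = 0.00677), and P0 was 2.18-fold above E11. The call ended from E13 to P0 (adjusted p = 0.182). The other probe set, 1423942_a_at, read 6.90 at P0, against 5.04 at E11, and did not pass (0.12 ± 0.049, adjusted p = 0.0632).

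**Figure D2:**
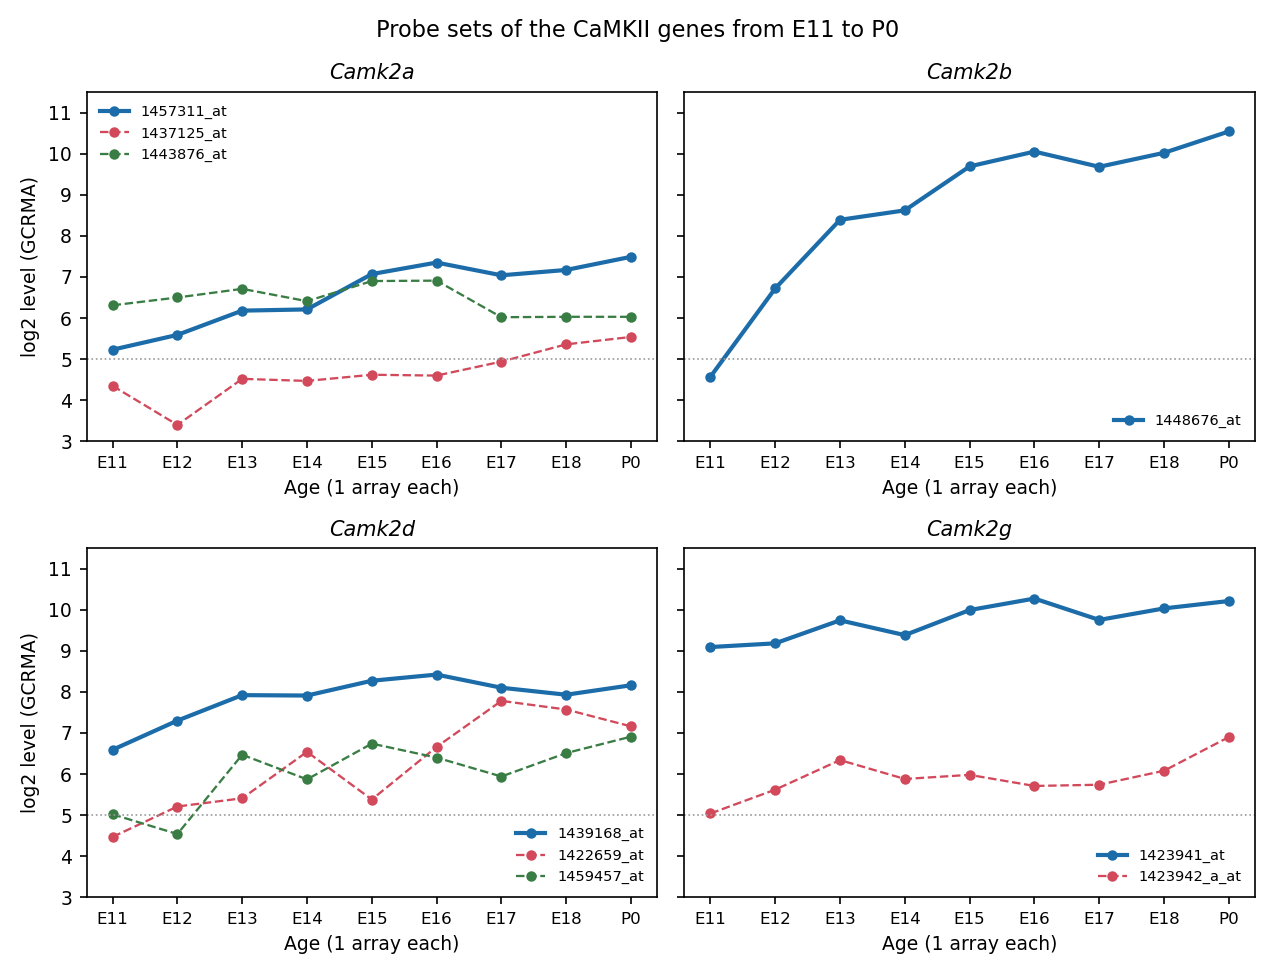
The log2 level (GCRMA) of each tested probe set of the CaMKII genes by age, 1 array per point. Solid lines are the probe sets with the highest mean of their gene, dashed lines the others, and the dotted line marks the filter level of 5. Camk2b reads 10.54 at P0, against 4.57 at E11, and one Camk2a probe set runs level and drops after E16 while another rises.

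The CaMKII genes did not change at one rate. The slope of the difference between 2 genes within each array was tested by exact permutation of the 9 ages (two-sided, adjusted over the 9 pairs computed within subfamilies, with 95% intervals from inverting the test). Camk2b rose faster than Camk2g by 0.50 log2 units per day (interval 0.27 to 0.75, exact p = 5.51e-06, the smallest these permutations can give, adjusted p = 4.96e-05). It rose faster than Camk2d by 0.48 (0.33 to 0.65, exact p = 1.10e-05, adjusted p = 4.96e-05). The difference of Camk2a minus Camk2b was -0.35 (-0.58 to -0.16, exact p = 1.65e-05, adjusted p = 4.96e-05). Camk2a rose faster than Camk2d by 0.13 (0.055 to 0.19, exact p = 0.00507, adjusted p = 0.00761) and than Camk2g by 0.14 (0.094 to 0.19, exact p = 0.000165, adjusted p = 0.000372). Both results on Camk2a rest on the choice of probe set. With the mean of all tested probe sets of a gene, Camk2a minus Camk2d was -0.11 (exact permutation, adjusted p = 0.0162) and Camk2a minus Camk2g 0.0095 (adjusted p = 0.758). Camk2d minus Camk2g was 0.018 (interval -0.070 to 0.12, exact p = 0.679, adjusted p = 0.679), and with the mean of all probe sets 0.12 (adjusted p = 0.0305).

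Within CaMKI, Camk1 and Camk1d rose, and Camk1g had no call. Camk1d encodes the delta form of CaMKI. Its probe set 1452050_at read 4.06 at E11, 6.78 at E12, 8.98 at E13, 9.0 at E14, 9.48 at E15, 9.26 at E16, 9.58 at E17, 9.38 at E18 and 9.38 at P0. By E13 it had made 90.7% of its rise, where the median over 1868 rising genes with a rise of at least 1 log2 unit was 45.3%. The slope was 0.51 ± 0.14 (limma, adjusted p = 0.0136), and P0 was at least 20.9-fold above E11. With the E11 array left out the call was lost (adjusted p = 0.0501), as it was from E13 to P0 (0.075 ± 0.035, adjusted p = 0.155).

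The other Camk1d probe sets were also lowest at E11 and were highest at E15, with their largest steps at different ages. Probe set 1426389_at read 3.62 at E11, 4.88 at E12, 7.77 at E13, 8.18 at E15 and 7.54 at P0 and rose by 0.41 ± 0.13 (limma, adjusted p = 0.0246). That call was lost with the E11 (adjusted p = 0.16) or E12 array (0.0756) left out, with no filter (0.0657), with a rank correlation (0.319) and over E13 to P0 alone, where the slope was -0.0065 (adjusted p = 0.951). Probe set 1438643_at was lowest at E11 (6.5), already at 8.12 at E12, highest at E15 (8.90) and at 7.69 and 8.17 on the last 2 arrays, with no linear call (0.090 ± 0.077, adjusted p = 0.363).

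Camk1, the alpha form, rose by both probe sets and kept its calls under each alternative tried. Probe set 1417605_s_at read 7.48 at E11, 7.90 at E12, 8.08 at E13, 8.12 at E14, 8.47 at E15, 8.83 at E16, 8.57 at E17, 8.91 at E18 and 9.06 at P0. Each array was above the one of the day before except at E17. It rose by 0.18 ± 0.024 (limma, adjusted p = 0.000233), to a level at P0 that was 3.0-fold that of E11, and 1417604_at by 0.25 ± 0.025 (adjusted p = 5.48e-05), 3.82-fold. From E13 to P0 the slopes were 0.17 ± 0.033 and 0.23 ± 0.036 (adjusted p = 0.00899 and 0.00317). By E13 the first had made 37.9% of its rise and by E15 62.8%.

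Camk1g, the gamma form, which is anchored to membranes by a lipid and takes part in dendrite growth, read 7.61 at E11, 7.45 at E12, 8.58 at E13, 8.17 at E14, 8.27 at E15, 8.12 at E16, 7.51 at E17, 7.80 at E18 and 8.28 at P0. The E13 array was the highest, and E17 lay near E11 and E12. The slope was 0.025 ± 0.048 (limma, adjusted p = 0.695). Camk1d rose faster than Camk1g by 0.48 per day (interval 0.18 to 0.83, exact permutation p = 0.00186, adjusted p = 0.00334), which ended from E13 to P0 (0.16, adjusted p = 0.111). Camk1 rose faster than Camk1g by 0.16 (0.040 to 0.27, exact p = 0.0181, adjusted p = 0.0232), which ended without the E18 array (adjusted p = 0.0596). Camk1 minus Camk1d was -0.33 (-0.71 to 0.028, exact p = 0.0698, adjusted p = 0.0785), and this passed without the E13 array (-0.39, adjusted p = 0.0373).

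Camk4, the nuclear kinase, had the largest slope of the family, within 1 standard error of that of Camk2b. Only 1 of its 5 probe sets, 1439843_at, was tested, and it read 3.33 at E11, 4.92 at E12, 6.28 at E13, 7.63 at E14, 8.67 at E15, 8.36 at E16, 8.31 at E17, 8.94 at E18 and 8.80 at P0. Each of the first 5 days was higher than the one before, and from E15 on all arrays lay between 8.31 and 8.94. The slope was 0.65 ± 0.10 (limma, adjusted p = 0.00087), and P0 was at least 13.9-fold above E11. With readings under 5 set to 5, 33.8% of that rise was reached by E13 and 96.7% by E15, where Camk1d had made 90.7% by E13. As read, Camk4 had gained 2.95 of 5.46 log2 units by E13. From E13 to P0 the slope was 0.35 ± 0.088 (adjusted p = 0.0225). The other 4 probe sets read at most 3.45 on every array.

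Camkk2, the upstream kinase, which also phosphorylates AMP-activated protein kinase, had no linear call in any of its 3 tested probe sets. Probe set 1424474_a_at read 9.44 at E11, 9.91 at E12, 10.16 at E13, 10.52 at E14, 10.33 at E15, 10.12 at E16, 10.34 at E17, 10.32 at E18 and 9.95 at P0. It was highest at E14 and at both ends of the course under 10. Its slope was 0.054 ± 0.036 (limma, adjusted p = 0.241). Probe set 1424475_at read 5.88 at E11, 6.91 at E14, 6.93 at E17 and 6.05 at P0 (0.048 ± 0.047, adjusted p = 0.435). Probe set 1455401_at was lowest at E11 (7.93) and highest at E15 (8.73), with no call (0.074 ± 0.032, adjusted p = 0.0826) and passed without the E13 array (adjusted p = 0.0431). The remaining probe set read at most 2.26 and was not tested.

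**Figure D3:**
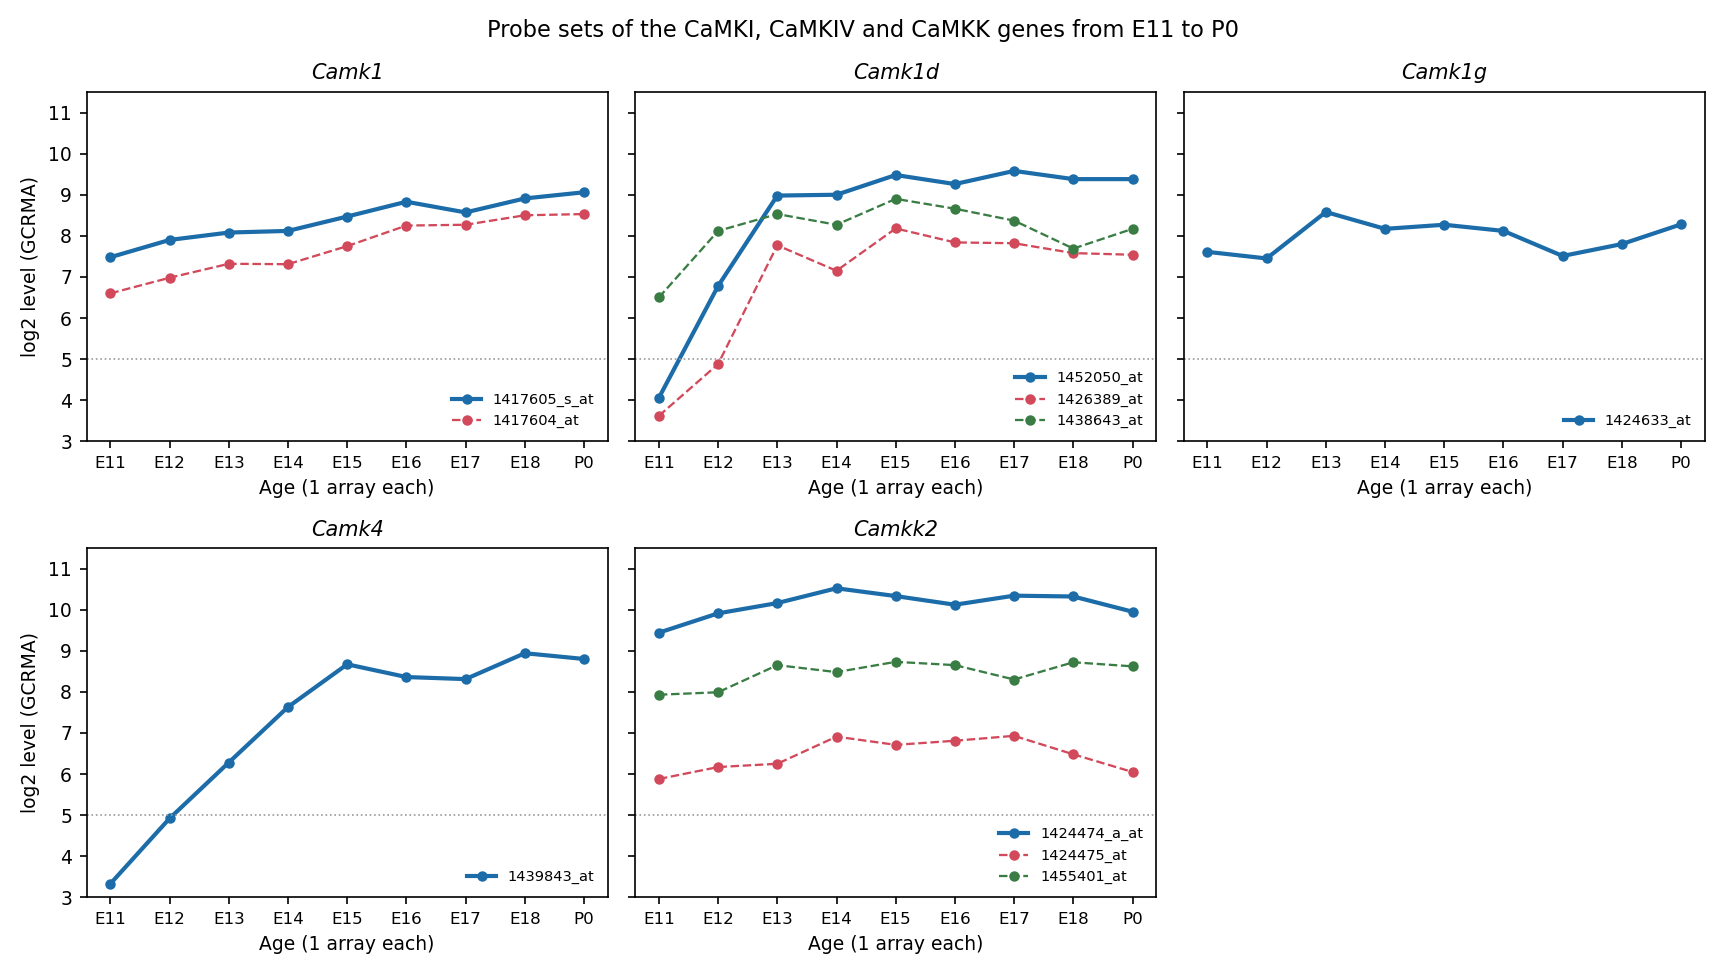
The log2 level (GCRMA) of each tested probe set of Camk1, Camk1d, Camk1g, Camk4 and Camkk2 by age, 1 array per point. Lines are drawn as in the plot of the CaMKII genes. The Camk1d probe set with the highest mean reads 8.98 at E13, against 4.06 at E11. Camk4 climbs until E15, both Camk1 probe sets are highest at P0, and the 3 Camkk2 probe sets are highest at E14, E17 and E15.

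Some of these courses bent. In a fit with age and age squared (limma, adjusted over all 21724 probe sets), 8 of the 19 tested member probe sets bent downward and 0 upward, against 4.42% and 0.842% of all probe sets. The 8 were all 3 of Camk1d, 1 each of Camk2b, Camk2d and Camk4, and 2 of Camkk2. For Camk2b, Camk4 and the Camk1d probe set 1452050_at, the quadratic terms were -0.13 ± 0.022, -0.14 ± 0.019 and -0.17 ± 0.031 log2 units per day squared (adjusted p = 0.0168, 0.00788 and 0.0168). The fitted curves had their tops at day 17.5, 17.4 and 16.5, which are not the ages at which the readings levelled. For the Camkk2 probe sets 1424474_a_at and 1424475_at, the quadratic terms were -0.040 and -0.054 (adjusted p = 0.0478 and 0.0391), with fitted tops at day 15.7 and 15.4. This count depended on single arrays: it was 0 without the E11 array, 1 without E15, 4 without E14 or E18, and 5 without E16 or E17. It was 6 without E13 or P0 and 7 without E12. The share of all probe sets that bent with an array left out was not computed, so a loss over the whole array cannot be told apart. The E11 array also carried the highest summed level of red cell genes, and the part of that in the bends was not tested.

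The early arrays also bear on the count of rises. Without the E11 array 8 member probe sets rose (16.1% of all probe sets) and without the E12 array 9 (17.0%). From E13 to P0 alone 7 rose, 0 fell and 12 did not pass, where 10.6% of all probe sets rose. These 7 were both probe sets of Camk1, 2 of Camk2a and 1 each of Camk2b, Camk2d and Camk4.

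Several genes that bind, restrain or resemble CaM kinases rose on the same arrays. Of 14 listed regulators and calmodulin-binding proteins 10 were tested, of which 6 rose, 0 fell and 4 did not pass, and the median slope was 0.25. Beside this list and those below, 25.0% of all genes tested rose and 21.6% fell. The calmodulin genes themselves were not analysed here. Camkv, a kinase-like protein of vesicles without catalytic activity, rose by 0.41 ± 0.052 (limma, adjusted p = 0.000229) and was 9.87-fold higher at P0 than at E11. Ppm1e, a phosphatase that removes the activating phosphate of CaM kinases, rose by 0.36 ± 0.040 (6.41-fold), whereas the related Ppm1f read between 7.81 and 8.32 throughout (0.0011 ± 0.024, adjusted p = 0.975). Pcp4, a small calmodulin-binding protein, rose by 0.34 ± 0.047 (11.2-fold), and Pnck, the beta form of CaMKI, by 0.26 ± 0.057 (4.43-fold). Camk2n2, an inhibitor protein of CaMKII, rose by 0.24 ± 0.055 (adjusted p = 0.00539). The other such inhibitor, Camk2n1, read 7.33 at E11, 10.34 at E12, 11.52 at E13 and 11.29 at P0, without a linear call (0.27 ± 0.12, adjusted p = 0.0857).

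**Figure D4:**
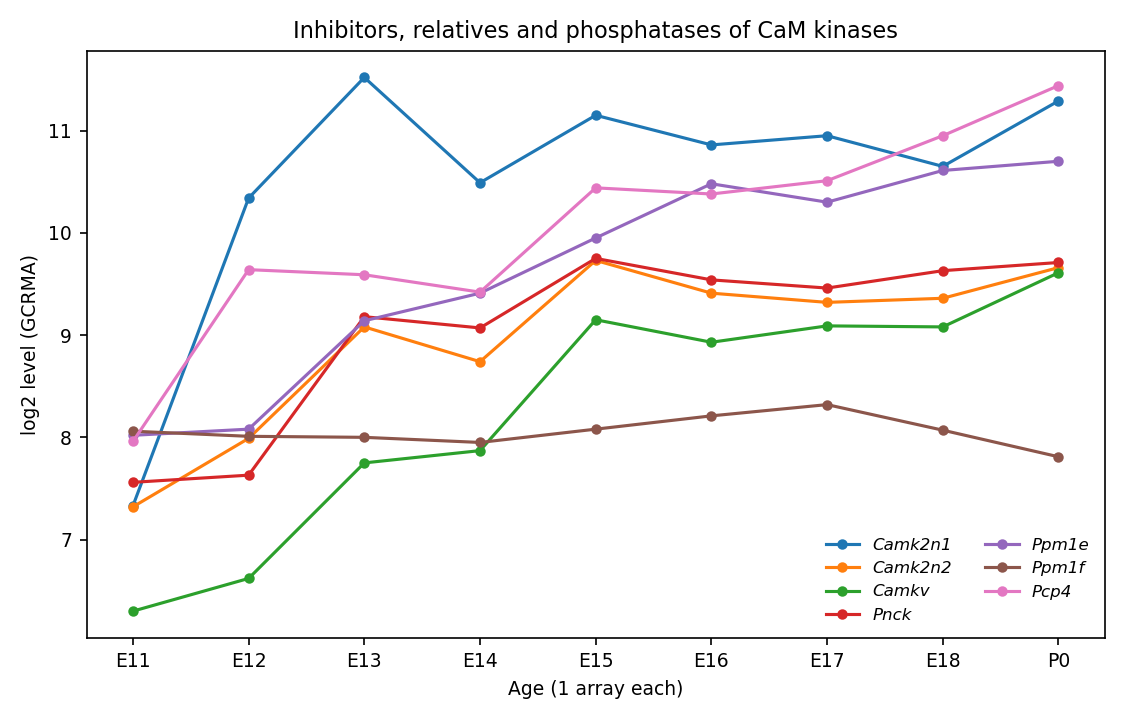
The log2 level (GCRMA) by age, 1 array per point, of 7 genes that inhibit, dephosphorylate, resemble or compete with CaM kinases. Camk2n1 reads 11.52 at E13, against 7.33 at E11, Camkv climbs to 9.61 at P0 and Ppm1f stays between 7.81 and 8.32.

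Synaptic substrates and partners of CaMKII rose more often than not. Of 20 listed 15 were tested, and 12 rose, 0 fell and 3 did not pass (median slope 0.31). Besides the synapsin Syn2 (0.95 ± 0.16) and the AMPA receptor subunit Gria1 (0.85 ± 0.17), Grin2b, the NMDA receptor subunit that anchors CaMKII, read 3.56 at E11, 4.43 at E12, 6.99 at E13 and 7.67 at P0 and rose by 0.49 ± 0.12 (adjusted p = 0.00692). Syt1, the calcium sensor of vesicle release, rose by 0.41 ± 0.093 (13.4-fold). Its other tested probe sets had slopes of 0.36, 0.34 and 0.08.

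Of 28 listed genes that bring calcium into the cytosol or clear it from there, 20 were tested, and 12 rose, 0 fell and 8 did not pass (median slope 0.30). The steepest were Atp2b3, a calcium pump of the plasma membrane (0.65 ± 0.14), Ryr2, a release channel of the endoplasmic reticulum (0.61 ± 0.099), Cacna1d, an L-type calcium channel (0.54 ± 0.11), and the sodium-calcium exchanger Slc8a1 (0.54 ± 0.089). All of these read under 5 at E11. Other tested probe sets of Atp2b3 and Slc8a1 had slopes of 0.21 and 0.40.

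Other calmodulin-dependent enzymes were split between rises and no call. Of 20 listed 14 were tested, and 7 rose, 0 fell and 7 did not pass (median slope 0.13). The calcium-stimulated adenylyl cyclases Adcy8 (0.79 ± 0.088) and Adcy1 (0.54 ± 0.094) and the Ras activators Rasgrf1 (0.73 ± 0.076) and Rasgrf2 (0.73 ± 0.091) were the steepest. Adcy8 read 3.90 at E13, 6.54 at E14 and 8.75 at P0.

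Nuclear targets and the parallel calcineurin arm were mixed. Of 18 listed nuclear targets 14 were tested, and 8 rose, 1 fell and 5 did not pass (median slope 0.11). Mef2c, a MADS-box factor of differentiating neurons, read 12.63 at P0, against 8.77 at E11, and rose by 0.54 ± 0.079, followed by Hdac9 (0.30 ± 0.047), a histone deacetylase that CaM kinases export from the nucleus, Mef2a (0.28 ± 0.026) and Hdac4 (0.25 ± 0.040). The acetyltransferase Ep300 fell with a slope of -0.071 ± 0.026 (adjusted p = 0.0471). Creb1, the substrate for which CaMKIV is best known, read 10.85 at P0, against 11.59 at E11, without a call (-0.067 ± 0.032, adjusted p = 0.118). Of 15 listed genes of calcineurin, the calcium-dependent phosphatase, and its NFAT targets, 12 were tested, and 5 rose, 1 fell and 6 did not pass (median slope 0.10). Ppp3cc (0.41 ± 0.043), a catalytic subunit, the regulator Rcan3 (0.20 ± 0.047), the regulatory subunit Ppp3r1 (0.16 ± 0.032) and the catalytic subunit Ppp3ca (0.15 ± 0.030) were the steepest, and Nfatc3 fell (-0.089 ± 0.031, adjusted p = 0.0371). Another probe set of Ppp3r1 had a slope of -0.15.

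Of 8 listed genes of AMP-activated protein kinase, a target of Camkk2, 7 were tested, and 3 rose, 1 fell and 3 did not pass (median slope 0.068). The catalytic subunit Prkaa2 (0.22 ± 0.049), Prkab2 (0.18 ± 0.041) and Prkag2 (0.078 ± 0.028) rose, and Prkag1 fell (-0.090 ± 0.019, adjusted p = 0.00343). Over the union of these lists, 52 of 91 tested genes rose and 3 fell, beside 25.0% and 21.6% of all genes. Over E13 to P0 alone, 25 rose and 2 fell, beside 13.5% and 10.8% of all genes. The filter weighs on these counts too. Some of the 52, among them Syn2, Gria1 and Adcy8, read under 5 at E11 and passed the filter only through later arrays. Of all probe sets under 5 on 1 array or more, 37.1% rose.

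**Figure D5:**
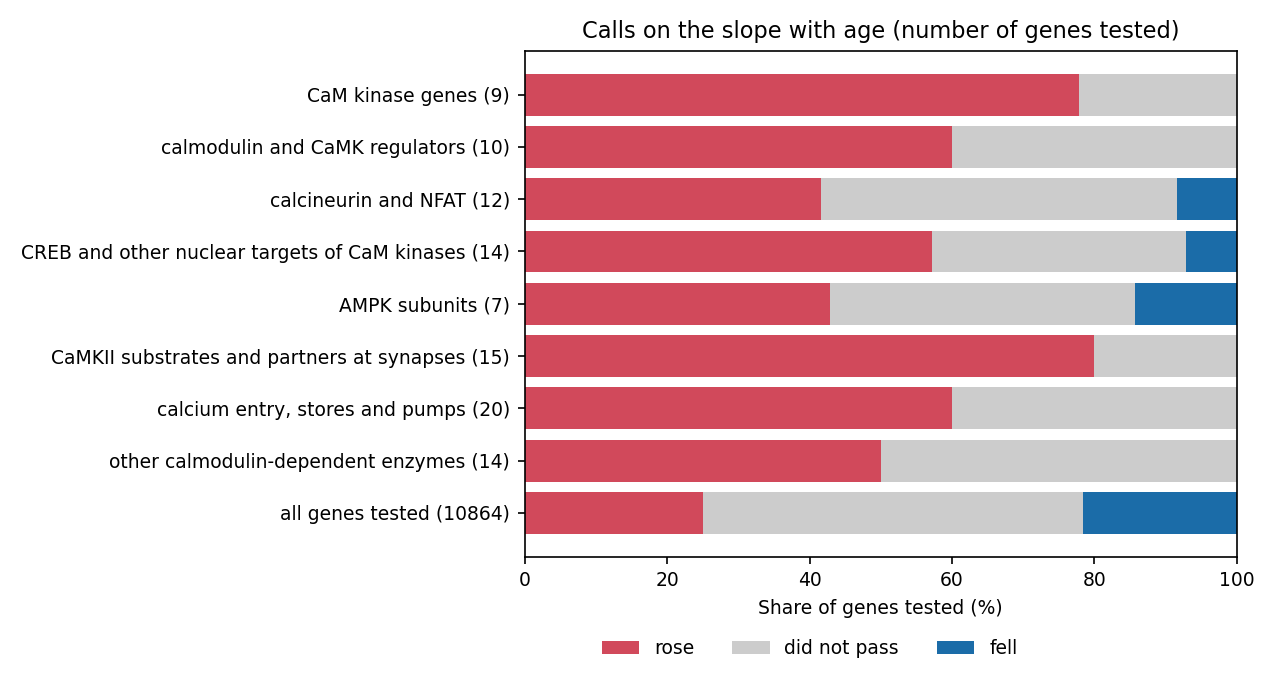
Share of tested genes, in percent, that rose (red), did not pass (grey) or fell (blue) with age, for the CaM kinase genes, each list of related genes and all 10864 genes tested, with the number tested in brackets. No gene fell in the CaM kinase, regulator, CaMKII substrate, calcium entry and other calmodulin-dependent enzyme bars, against 21.6% of all genes.

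General neuronal markers moved on the same arrays, on which 25.0% of all genes tested rose and 21.6% fell. Of 12, 7 rose, 0 fell and 5 did not pass, with a median slope of 0.080, and their summed level was lowest at E11, at 15.44 log2 units, and highest at E15, at 16.61. Of 10 tested mitral and tufted cell genes 5 rose and 2 fell, of 12 GABAergic genes 10 rose, and of 9 tested microglial genes 8 rose, with a summed level of 11.94 at P0, against 9.18 at E11. All 9 tested astrocyte genes rose (summed level 15.27 at P0, against 13.43 at E11), as did 9 of 10 genes of meninges and mesenchyme (15.07 at P0, against 12.47 at E11). Of 8 tested genes of olfactory ensheathing cells 7 rose (15.54 at P0, against 14.46 at E11). That sum lay close to the level of Fabp7 alone, which read 14.46 at E11 and 15.34 at P0. Npy and Sox10 of the same list read 3.31 and 4.77 at E11 and 12.15 and 7.88 at P0. Of 6 tested endothelial genes 3 rose. Of 10 listed skeletal muscle genes 2 were tested and both rose, but Myh8 reached 5 at E18 (5.59) and P0 (6.45) only. These counts, too, depend on the filter. Some of the genes, among them Aqp4, S100b, Ogn, C1qa, Itga7 and Myh8, read under 5 on early arrays and passed only through later ones. Of all probe sets under 5 on 1 array or more, 37.1% rose. The part of each cell type in the courses of the CaM kinases was not tested.

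The genes most like each member that rose were found by Pearson correlation over the 9 arrays, which share the trend with age. Such values are high for many genes: 552 genes correlated with Camk2b above 0.95 and 57 with Camk2g. Closest to Camk2b were the calcium pump gene Atp2b2, Ndrg4 and Abr (each r = 0.997). Closest to Camk4 were the calcium-binding protein gene Cpne6 (0.993), Cdkl2 and Mdga2 (both 0.991), and closest to Camk1d the semaphorin gene Sema3e (0.994), Dlk2 and Hs3st1 (both 0.993). For Camk2a they were Ndrg3 (0.994), A830010M20Rik and the synaptic scaffold gene Dlg2 (both 0.992), and for Camk2d Usp29 (0.991), the calcium channel subunit gene Cacnb4 (0.990) and Ppfia2 (0.989). Camk1 was closest to the fucosidase gene Fuca2 (0.994), the lysosomal membrane gene Lamp1 and Hagh (both 0.988). Camk2g was closest to 4931406C07Rik (0.979), Prkab2 (0.978) and Plcb4 (0.976).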

How the data were processed

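Messenger RNA of the olfactory bulb was measured on 9 Affymetrix mouse arrays, 1 per age. Per the submitters' processing notes, the deposited values were made by the authors with GCRMA, and the log2 scale follows from how far the values reach and what GCRMA writes. The version of GCRMA is not given in the sources used here. No further scaling was applied. Probe sets were named from the platform annotation (34945 with 1 gene symbol, 932 with several, 9211 not listed there), and 64 controls were left out. Probe sets at log2 5 or more on at least 2 arrays were fitted against age in days (P0 as day 19) with limma 3.58.1 in R 4.3.3, with a trend on the mean level, 7 residual degrees of freedom and 10.3 after moderation. Precision is limited by having 9 arrays. Folds and the percentages of a rise reached by an age use values under 5 set to 5, and a reading under 5 makes the fold a lower bound. In simulated data with the means and scatter of the 21724 probe sets, trends that add up to 1, 2, 4 or 8 log2 units between E11 and P0 were found for 26%, 80%, 92% and 100% of 50 probe sets each, with 8 false calls among 157. In the data 4487 probe sets rose and 5143 fell, so the adjusted threshold was stricter in the simulation. The shares found can therefore be lower than those for the data. The members and lists were chosen with earlier results of these data known. Named were all members, the 4 genes of each list with the largest slopes past the threshold, genes called against a list's majority, and the 3 genes most correlated with each called member. Camk2n1, Camk2n2, Ppm1f, Creb1 and the marker genes were named outside that rule, after their values were seen.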

Additional observations from a re-analysis of the deposited data

How the results depend on the processing

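No paired analysis was possible because each age had 1 array. Leaving out 1 array at a time gave 8 to 14 rising and 0 falling CaM kinase probe sets, 5 to 7 rising CaM kinase genes, 0 to 7 probe sets that bent downward and 6 to 8 gene pairs with different slopes (7 with all arrays). Over the related lists it gave 45 to 52 genes that rose and 1 to 3 that fell. From E13 to P0 alone, 7 probe sets and 4 genes of the family and 25 listed genes rose, and 0 probe sets bent downward. With sex, read from Xist, as a term in the fit, 12 probe sets and 7 genes of the family rose and 0 probe sets fell. The count of downward bends was 5 with values under 5 set to 5, 5 after quantile normalization and 5 with each array centred on its median. The count of listed genes that fell was 5 with that centring, 1 with no filter, 1 with a rank correlation and 6 with the probe set of largest range. Some slopes changed sign. From E13 to P0 those of Camkk2 were -0.036, -0.044 and -0.0011, that of Camk1g -0.086, and those of 2 Camk1d probe sets -0.0065 and -0.099. With 1 array left out Camk1g ranged over -0.0055 to 0.052 (-0.0028 without E11) and Camk1d (1438643_at) over -0.046 to 0.14. Of the slope differences, Camk1 minus Camk1d was 0.091 and Camk2d minus Camk2g -0.068 from E13 to P0, and the second ranged over -0.039 to 0.043 with 1 array left out. Camk2a minus Camk2d was -0.11 with the mean of all probe sets of a gene. That mean takes in a Camk2a probe set with no rise (1443876_at, slope -0.056). It also takes in Camk2d probe sets with larger slopes (1422659_at, 0.38, and 1459457_at, 0.22) than the chosen 1439168_at (0.15). The part of each was not tested, nor were the causes of the other changes. Of 541 single slopes and differences under these settings, 500 kept direction and side of the threshold, 22 lost the call, 6 gained one and 13 changed sign.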
